A study of Mus musculus with 6 samples.

Results

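Genes of mitochondrial protein import and of the chaperones and proteases that receive imported proteins were examined in the duodenal epithelium of mice that lack *Esrra*, the gene of a nuclear receptor that binds the promoters of many genes for mitochondrial energy metabolism. The genes were taken by symbol from the table of FPKM, the number of sequenced fragments scaled to the length of the transcript and to the size of the library, as every symbol that begins with *Timm* or *Tomm* and 20 named genes. This gave 42 of the 22611 genes in the table, 22 by the start of their symbol and 20 by name. The rule uses symbols only and no expression value. The series holds 3 WT libraries and 3 *Esrra*-/- libraries (labelled ESRRAKO), with 1 duodenal epithelium sample each. The WT mice were littermates of the *Esrra*-/- mice, and both were on a high-fat diet before the duodenum was taken. The *Esrra*-/- allele is a germline deletion, so that the receptor was missing from every tissue, and a difference that arose in the epithelium cannot be told apart from one that followed changes elsewhere in the body. The colony also carried floxed *Esrra* alleles and a Cre transgene driven by the villin promoter of gut epithelium, and whether these mice had them is not given in the sources used here, nor are their ages. Both sexes were used.

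Nearly all mitochondrial proteins are made in the cytosol and must be carried into the organelle. The TOM complex of the outer membrane is the common entry gate. Behind it the SAM complex inserts barrel-shaped proteins into the outer membrane, small TIM chaperones escort hydrophobic proteins across the intermembrane space, and CHCHD4 with GFER forms disulphide bonds in proteins that stay there. TIM22 inserts metabolite carriers into the inner membrane. TIM23 and its motor pull proteins with a presequence into the matrix, where peptidases cut the presequence off, chaperones fold the protein and proteases remove what fails to fold. The absorptive cells of the duodenum rely on this route for the enzymes that burn their fuel.

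The targeted gene *Esrra* had 49.4, 73.5 and 104 FPKM in WT replicates 1 to 3 and 10.4, 9.42 and 8.72 FPKM in *Esrra*-/- replicates 1 to 3, a log2 fold change of −2.92 ± 0.26 (SE, limma adjusted p = 0.0215). Defining markers of the tissue were present, since all 12 markers of villus enterocytes had a mean above 1 FPKM and summed to 32710 to 50620 FPKM in WT and 39640 to 56720 FPKM in *Esrra*-/-. Of 10 pancreatic acinar markers 6 were listed at 0 in all libraries, and 8 of 9 mesenchymal markers had a mean of 1 FPKM or less. Immune cell markers were present, with only 2 of 11 at a mean of 1 FPKM or less. They summed to 118.8 to 210.5 FPKM in WT and 103.5 to 245.4 FPKM in *Esrra*-/-. WT replicate 3 and *Esrra*-/- replicate 3 were the libraries with under 1 FPKM of Y-linked transcripts in all, against 27.3 to 46.7 FPKM in the other libraries. Depth is not given by FPKM values. The ratios of values under 0.2 FPKM put the worth of 1 fragment in the other libraries at 0.976 to 1.21 times that in WT replicate 1, with 62.5% to 72.3% of those ratios at ratios of small whole numbers, and replicate 3 of each genotype was the highest of its group.

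The promoters of 6 members carry the letters of the half-site that ESRR receptors recognise, AAGGTCA. Of the 42 members 38 have a promoter in RefSeq (GRCm38.p6), all but *Grpel2*, *Hspa9*, *Tomm40l* and *Tomm7*, read from 250 bases before to 50 bases after the start of transcription and searched on both strands. The half-site was found for *Timm23*, *Timm44*, *Timm8b*, *Trap1*, *Hspd1* and *Hspe1*, 15.8% of the 38, where 5.38% of all genes with a promoter hold it. Among the 38 were 15 members that were lower in *Esrra*-/- at a raw p below 0.05, and only 3 of these 15 hold the half-site. The longer site TCAAGGTCA, which contains the half-site, was found for *Timm8b* alone, against 0.466% of all genes. The letters CCGGAAG, the core that ETS factors recognise, stood in the promoters of 16 members (42.1%) against 9.93% of all genes. The promoters of *Timm23*, *Timm44* and the pair of *Hspd1* and *Hspe1* are shown because they hold the half-site and *Timm23*, *Timm44* and *Hspe1* were lower in *Esrra*-/- at a raw p below 0.05, those of *Timm8b* and *Trap1* because they hold it and did not reach that p, and that of *Mtx2* because this gene had the smallest p of all members and no half-site. Each sequence reads 5′ to 3′ along the gene from 200 bases before to 30 bases after the start, apart from that of the pair, which is the 215 bases between the starts of the genes. Capitals mark AAGGTCA and CCGGAAG on either strand, which overlap in *Timm23*, and in the pair also the heat shock element (GAA, TTC and GAA with any 2 bases between each), which overlaps CCGGAAG there. All were placed on mm9, the build the authors used, by an exact match found once on its chromosome.
*Timm23* (chr14:33015048-33015277, minus strand): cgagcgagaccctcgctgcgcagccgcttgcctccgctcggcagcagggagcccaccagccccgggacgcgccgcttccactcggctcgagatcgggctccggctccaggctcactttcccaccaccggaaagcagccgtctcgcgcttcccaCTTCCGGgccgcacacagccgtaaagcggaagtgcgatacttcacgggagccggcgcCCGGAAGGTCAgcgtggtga
*Timm44* (chr8:4275876-4276105, minus strand): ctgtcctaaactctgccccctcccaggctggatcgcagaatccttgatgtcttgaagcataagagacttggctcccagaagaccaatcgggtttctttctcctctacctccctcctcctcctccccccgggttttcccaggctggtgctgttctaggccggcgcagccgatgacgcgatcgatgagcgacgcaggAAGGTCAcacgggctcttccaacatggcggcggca
*Hspd1* and *Hspe1* (chr1:55144777-55144991, plus strand, which is the strand of *Hspe1*): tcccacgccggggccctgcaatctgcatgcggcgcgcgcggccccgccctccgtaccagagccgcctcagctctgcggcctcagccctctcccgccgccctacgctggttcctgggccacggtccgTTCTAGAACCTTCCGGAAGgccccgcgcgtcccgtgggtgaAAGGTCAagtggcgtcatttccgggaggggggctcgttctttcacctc
*Timm8b* (chr9:50411806-50412035, plus strand): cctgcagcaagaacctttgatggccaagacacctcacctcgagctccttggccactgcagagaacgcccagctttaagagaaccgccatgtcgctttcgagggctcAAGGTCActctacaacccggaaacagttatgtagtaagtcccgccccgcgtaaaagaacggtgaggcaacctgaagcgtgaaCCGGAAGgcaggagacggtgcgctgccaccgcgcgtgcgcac
*Trap1* (chr16:4077781-4078010, minus strand): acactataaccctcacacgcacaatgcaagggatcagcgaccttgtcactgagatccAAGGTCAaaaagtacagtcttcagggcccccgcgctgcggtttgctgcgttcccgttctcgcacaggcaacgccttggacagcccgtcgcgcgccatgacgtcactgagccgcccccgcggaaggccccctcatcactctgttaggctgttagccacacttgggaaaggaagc
*Mtx2* (chr2:74663669-74663898, plus strand): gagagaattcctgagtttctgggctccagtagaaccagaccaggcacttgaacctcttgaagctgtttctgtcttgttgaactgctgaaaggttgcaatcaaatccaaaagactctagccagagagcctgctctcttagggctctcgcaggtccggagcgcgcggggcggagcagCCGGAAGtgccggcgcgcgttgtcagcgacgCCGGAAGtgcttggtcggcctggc

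Counted from the start of transcription, the first base of the half-site lay at −5 in *Timm44*, 15 in *Timm23*, −94 in *Timm8b*, −143 in *Trap1* −48 in *Hspe1* and −174 in *Hspd1*. The heat shock element was found for *Hspd1*, *Hspe1* and *Timm9*, or 7.89% of the 38 members, against 0.662% of all genes. *Hspd1* and *Hspe1* are read in opposite directions from the same stretch, so that their matches are the same letters. Such matches are a description of the letters and not of binding.

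Of these genes, 7 had less mRNA in *Esrra*-/- by the calling rule given next, at 52.4% to 63.9% of the WT mean: *Mtx2* and *Samm50* of the SAM complex, *Timm8a1* and *Timm10* of the small TIM chaperones, *Tomm5* of the entry gate, *Timm23* of the inner channel and *Dnajc19* of its motor. No gene was higher by the same rule, and the peptidases and proteases of the matrix did not pass the test in either direction. Of the 42 members 40 had a mean above 1 FPKM and entered the limma fit, a linear model per gene with moderated variances, which was made on log2(FPKM + 0.1) for all 10596 genes above that limit. *Tomm20l* and *Timm8a2*, paralogs of *Tomm20* and *Timm8a1*, were the members left out, with at most 0.247 and 0.224 FPKM in any library. Fold changes are given as *Esrra*-/- over WT, and a call needed a raw p below 0.05 together with a log2 fold change of more than 0.58 in either direction. By this rule 7 of the 40 were called lower (17.5%) and 0 higher, where 3.28% of all genes tested were called lower and 1.35% higher. The members had shorter transcripts than the genes they are set beside, with a median annotated length of 1415 bases against 2133, and the shares by length are given with the library values. At a raw p below 0.05 with no limit on the fold change, 16 members were lower (40.0%, against 6.49% of all genes) and 0 were higher (against 4.3%). The highest *Esrra*-/- library was below the lowest WT library for 20 members (50.0%, against 9.14%) and the reverse held for 0 (against 8.45%). These 20 were the 16 genes without *Timm17a*, and *Grpel1*, *Mtx1*, *Dnaja3*, *Tomm22* and *Tomm70a*. The median log2 fold change was −0.26 over the members and 0.03 over all genes, and 35 members had a negative value (87.5%, against 45.7%). The same share, 87.5%, of 24 cytosolic chaperone genes had a negative value, so the sign alone does not set the members apart from them. After Benjamini-Hochberg adjustment over all genes tested 0 members had an adjusted p under 0.05, and 4 genes of the whole table did (0.0378%). The smallest limma adjusted p of a member was 0.0826, for *Mtx2*, so no single member passed once all genes were taken into account. Nothing here tells apart fewer cells of a type from less RNA in each cell, since the samples are bulk tissue.

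**Figure D1:**
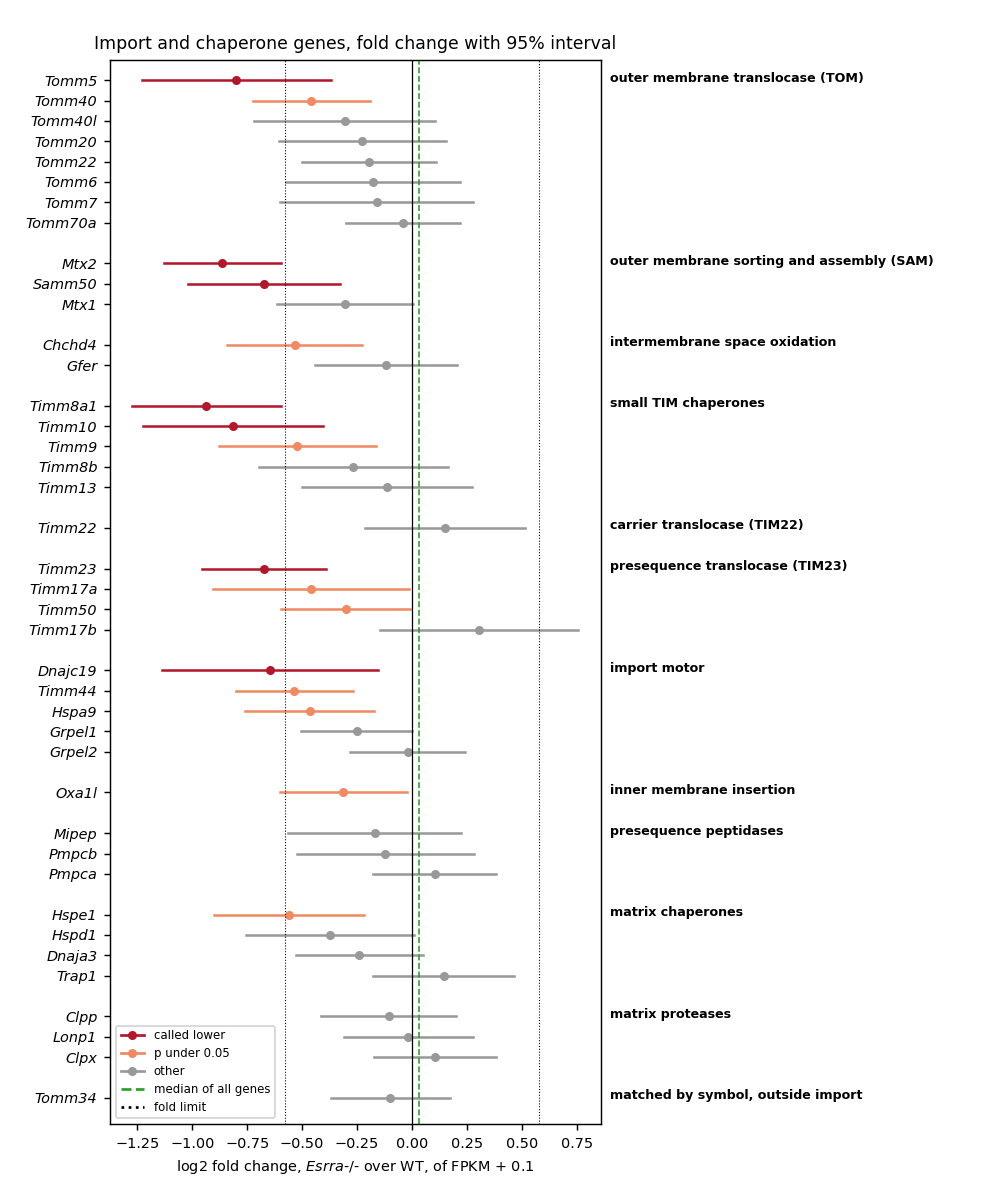
Log2 fold change of FPKM + 0.1, *Esrra*-/- over WT (x axis), for the 40 tested members (y axis), grouped by role; points are limma estimates and bars their 95% intervals, with 3 libraries per genotype. The 7 genes called lower lie in the TOM, SAM, small TIM, TIM23 and motor groups, and the peptidases and proteases lie on both sides of 0.

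**Figure D2:**
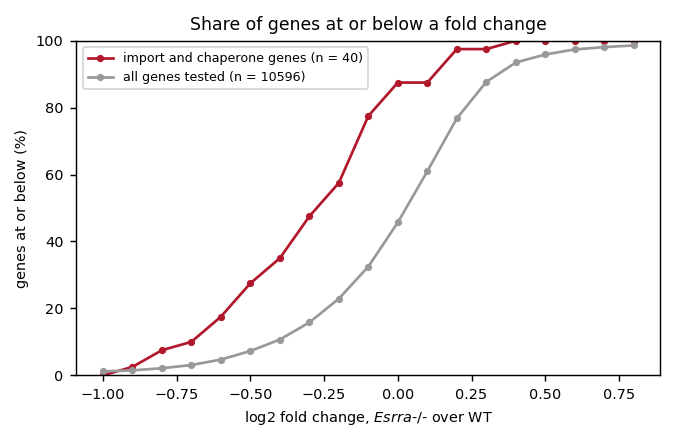
Share of genes (y axis, percent) at or below a given log2 fold change, *Esrra*-/- over WT (x axis), for the 40 tested members and for all 10596 genes tested. At −0.5 the share was 27.5% of members and 7.26% of all genes, and at 0.4 all members had been counted.

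The SAM complex, which folds barrel-shaped proteins into the outer membrane, had 3 genes among the members, none of which overlapped between the genotypes. *Mtx2*, metaxin 2, a cytosol-facing subunit, had 14.6, 14.0 and 15.8 FPKM in WT replicates 1 to 3 and 7.80, 7.78 and 8.65 FPKM in *Esrra*-/- replicates 1 to 3. It fell to 54.7% of the WT mean, a log2 fold change of −0.86 ± 0.11 (SE, limma adjusted p = 0.0826). *Samm50*, the barrel that forms the core of the complex, had 60.4, 58.9 and 64.2 FPKM in WT and 35.2, 34.9 and 45.6 FPKM in *Esrra*-/-. Its *Esrra*-/- replicate 3 stood above the other *Esrra*-/- libraries and still below every WT library, and the log2 fold change was −0.67 ± 0.15 (SE, limma adjusted p = 0.247). *Mtx1*, the partner of metaxin 2, averaged 59.4 ± 4.92 FPKM over WT against 48.1 ± 3.56 FPKM over *Esrra*-/- (SD, n = 3 each). The values of *Mtx1* did not overlap, and its log2 fold change of −0.30 had a 95% interval from −0.61 to 0.004 and did not pass the test. *Mtx3*, a further metaxin that the symbol rule does not take in, averaged 2.03 ± 0.471 FPKM over WT against 2.22 ± 0.476 FPKM over *Esrra*-/- (SD, n = 3 each), with overlap and a log2 fold change of 0.13 (limma adjusted p = 0.881). In mm9 the protein-coding gene *Mtx2* covers chr2:74663860-74716488 and *Samm50* covers chr15:84022663-84044733, both on the plus strand.

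**Figure D3:**
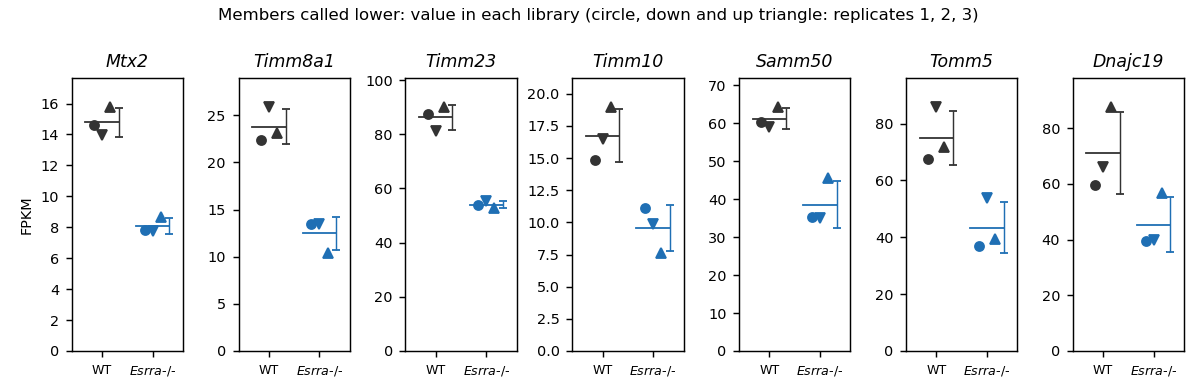
FPKM (y axis, from 0) in each of the 3 WT and 3 *Esrra*-/- libraries for the 7 members called lower; symbols are replicates, horizontal lines are means and bars the SD. No *Esrra*-/- library reached the lowest WT library for any of the 7 genes, and *Dnajc19* had the narrowest gap, from 56.7 to 59.5 FPKM.

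Of the TOM complex, 1 of 8 tested genes was called lower, 2 were lower at a raw p below 0.05, and 0 were higher, with a median log2 fold change of −0.21. *Tomm5*, a small subunit that stabilises the pore, had 67.6, 85.7 and 71.7 FPKM in WT and 37.1, 53.8 and 39.4 FPKM in *Esrra*-/-. The gene covers chr4:45118080-45120986 (minus strand). Replicate 2 was the highest of each genotype for it, and the genotypes did not overlap (log2 fold change −0.80 ± 0.18, SE, limma adjusted p = 0.268). *Tomm40*, the pore itself, had 36.6, 34.9 and 35.4 FPKM in WT and 25.9, 27.4 and 24.5 FPKM in *Esrra*-/-. The spread within a genotype was small for *Tomm40*, and its log2 fold change of −0.46 ± 0.11 (SE, limma adjusted p = 0.289) passed the p but not the fold limit. *Tomm40l*, a paralog of the pore, had 16.9, 15.1 and 20.9 FPKM in WT and 13.3, 12.4 and 17.0 FPKM in *Esrra*-/-, and the genotypes overlapped. The receptors that read targeting signals gave smaller differences. The log2 fold changes were −0.23 for *Tomm20*, −0.20 for *Tomm22* and −0.04 for *Tomm70a*, and the 95% interval of *Tomm70a*, from −0.30 to 0.22, excludes a fall as large as the limit of 0.58. The small subunits *Tomm6* and *Tomm7* had −0.18 and −0.16. These differences leaned on WT replicate 3, and without it they were −0.09 for *Tomm20*, −0.13 for *Tomm22*, −0.05 for *Tomm6*, 0.03 for *Tomm7* and −0.18 for *Tomm40l*, which had −0.31 with all libraries. *Tomm6* shares 86.1% of its stretches of 31 bases with annotated transcripts of *Prickle4* and *Usp49*, so its value is uncertain. Such shared stretches made up 29.3% of *Gfer*, 24.7% of *Pmpca*, 14.4% of *Timm17b*, 10.9% of *Grpel1* and 10.3% of *Timm8b*, whose values are uncertain to that extent.

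Of the 5 small TIM chaperone genes tested 3 were lower at a raw p below 0.05, 2 of them called, and 0 were higher. TIMM9 and TIMM10 form one ring-shaped complex, and TIMM8 with TIMM13 forms another. Both genes of the first ring were lower, *Timm10* with 14.8, 16.5 and 18.9 FPKM in WT and 11.1, 9.89 and 7.60 FPKM in *Esrra*-/-. The log2 fold change of *Timm10*, at chr2:84667154-84670370 (plus strand), was −0.82 ± 0.17 (SE, limma adjusted p = 0.238). Over the 4 libraries with Y-linked transcripts alone it was −0.57, short of the fold limit. *Timm9* averaged 16.7 ± 0.466 FPKM over WT against 11.7 ± 2.09 FPKM over *Esrra*-/- (SD, 3 libraries each), with a log2 fold change of −0.52 (limma adjusted p = 0.334).

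In the second ring *Timm8a1* had 22.4, 25.8 and 23.2 FPKM in WT and 13.5, 13.5 and 10.4 FPKM in *Esrra*-/-. This gene, the mouse counterpart of the gene of a human deafness and dystonia syndrome, had the most negative log2 fold change of all members, −0.94 ± 0.14 (SE, limma adjusted p = 0.113). The gene covers chrX:131071795-131076404 (mm9, minus strand), and 41.8% of its stretches of 31 bases also occur in *Gm9797*, which was listed at 0 in all 6 libraries. A listed 0 does not show which gene the shared fragments came from, so the value of *Timm8a1* is uncertain to that extent. Its partner *Timm13* averaged 29.3 ± 5.38 FPKM over WT against 26.9 ± 2.97 FPKM over *Esrra*-/- (SD, 3 libraries each), with a log2 fold change of −0.11 and a 95% interval from −0.50 to 0.27. *Timm8b*, the paralog with the longer ESRR site, had 82.2, 74.1 and 98.2 FPKM in WT and 64.7, 61.6 and 86.2 FPKM in *Esrra*-/-, with overlap and a log2 fold change of −0.27, which was −0.16 without WT replicate 3, −0.17 without *Esrra*-/- replicate 2 and −0.42 without *Esrra*-/- replicate 3. *Timm10*, *Timm9* and *Timm8a1* were lowest in *Esrra*-/- replicate 3, whereas *Timm8b* and *Timm13* were highest there among the *Esrra*-/- libraries.

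*Chchd4*, the oxidoreductase that puts disulphide bonds into small proteins of the intermembrane space, had 13.9, 13.3 and 15.6 FPKM in WT and 10.2, 8.64 and 10.6 FPKM in *Esrra*-/-. The log2 fold change of −0.53 ± 0.13 (SE, limma adjusted p = 0.289) was short of the fold limit. *Gfer*, the sulfhydryl oxidase that recharges it, had a log2 fold change of −0.12, and its genotypes overlapped. *Timm22*, the channel for metabolite carriers, had 9.27, 7.98 and 6.82 FPKM in WT and 7.90, 8.84 and 9.93 FPKM in *Esrra*-/-. It was among the 5 members with a positive log2 fold change, 0.15 with a 95% interval from −0.21 to 0.52. This was 0.04 without WT replicate 3 and 0.26 without WT replicate 1.

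At the inner membrane, 3 of the 4 genes of the TIM23 translocase were lower at a raw p below 0.05 and 0 were higher. *Timm23*, the channel subunit, had 87.5, 81.2 and 90.0 FPKM in WT and 54.0, 55.2 and 52.9 FPKM in *Esrra*-/-. The values of each genotype lay close together, and the gene fell to 62.7% of the WT mean (log2 fold change −0.67 ± 0.12, SE, limma adjusted p = 0.165). The gene covers chr14:32993348-33015084 (mm9, minus strand). *Timm50*, the receptor for presequences, had a log2 fold change of −0.30 (limma adjusted p = 0.449) and no overlap.

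*Timm17a* and *Timm17b* encode alternative forms of the subunit that lines the channel with TIMM23, and their values went in opposite directions. *Timm17a* had 49.7, 38.5 and 52.5 FPKM in WT and 38.5, 27.1 and 37.0 FPKM in *Esrra*-/-, a log2 fold change of −0.46 (limma adjusted p = 0.448) with genotypes that met at 38.5 FPKM. *Timm17a* and *Timm50* were near the threshold and kept a raw p below 0.05 in 9 and 8 of 15 other settings. Both lost it without WT replicate 1 and without WT replicate 3, which leaves 1 of the 4 genes, *Timm23*. In addition *Timm17a* lost it without *Esrra*-/- replicate 2, at −0.30, and *Timm50* without WT replicate 2, *Esrra*-/- replicate 1 or *Esrra*-/- replicate 3. *Timm17b* had 11.9, 13.2 and 18.8 FPKM in WT and 16.7, 16.7 and 20.2 FPKM in *Esrra*-/-. The WT replicate 3 value of *Timm17b* lay within the *Esrra*-/- range, and the log2 fold change of 0.31 did not pass the test (limma adjusted p = 0.599). Without WT replicate 3 it was 0.50 and passed a raw p below 0.05, and without WT replicate 1 it was 0.17. The ratio of *Timm17b* to *Timm17a* within a library was 0.239, 0.342 and 0.359 in WT and 0.433, 0.615 and 0.545 in *Esrra*-/-, a log2 difference of 0.77 with no overlap. The two-sided exact permutation test gave p = 0.1, the smallest that 3 libraries against 3 allow, and 0.15 after adjustment over the 6 pairs of genes compared.

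Of the 5 members in the import motor 3 were lower at a raw p below 0.05, 1 of them called, and 0 were higher, with a median of −0.46. *Dnajc19* (chr3:33954942-33980243, minus strand), a J-protein that stimulates the motor's ATPase, had 59.5, 65.9 and 87.5 FPKM in WT and 39.5, 39.8 and 56.7 FPKM in *Esrra*-/-. Replicate 3 was the highest of each genotype, and the log2 fold change of −0.65 ± 0.21 (SE, limma adjusted p = 0.375) went to −0.49 without WT replicate 3, −0.56 without *Esrra*-/- replicate 1 and −0.56 without *Esrra*-/- replicate 2, none of which is called. *Timm44*, the scaffold that ties the motor to the channel, had 21.9, 21.1 and 23.2 FPKM in WT and 15.2, 16.1 and 14.3 FPKM in *Esrra*-/-. Its log2 fold change was −0.54 ± 0.11 (SE, limma adjusted p = 0.238). *Hspa9*, the Hsp70 of the matrix (mortalin) that pulls on the incoming chain, averaged 88.3 ± 5.64 FPKM over WT against 63.9 ± 2.59 FPKM over *Esrra*-/- (SD, 3 libraries each), with a log2 fold change of −0.46 (limma adjusted p = 0.311). *Grpel1* and *Grpel2* encode the nucleotide exchange factors of that Hsp70. *Grpel1* had 12.6, 11.5 and 12.5 FPKM in WT and 9.80, 10.4 and 10.4 FPKM in *Esrra*-/-. *Grpel2* had 9.00, 9.69 and 10.3 FPKM in WT and 9.41, 9.28 and 9.87 FPKM in *Esrra*-/-. The log2 fold change was −0.25 for *Grpel1*, without overlap and just short of the raw p (limma adjusted p = 0.464), and −0.02 for *Grpel2*. Motor genes outside the symbol rule went both ways, with a log2 fold change of −0.75 for *Dnajc15*, and of 0.25 for *Pam16*, a regulatory J-like subunit. *Pam16* had 28.5, 28.6 and 38.6 FPKM in WT and 34.0, 33.4 and 47.1 FPKM in *Esrra*-/-, with overlap (limma adjusted p = 0.667).

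**Figure D4:**
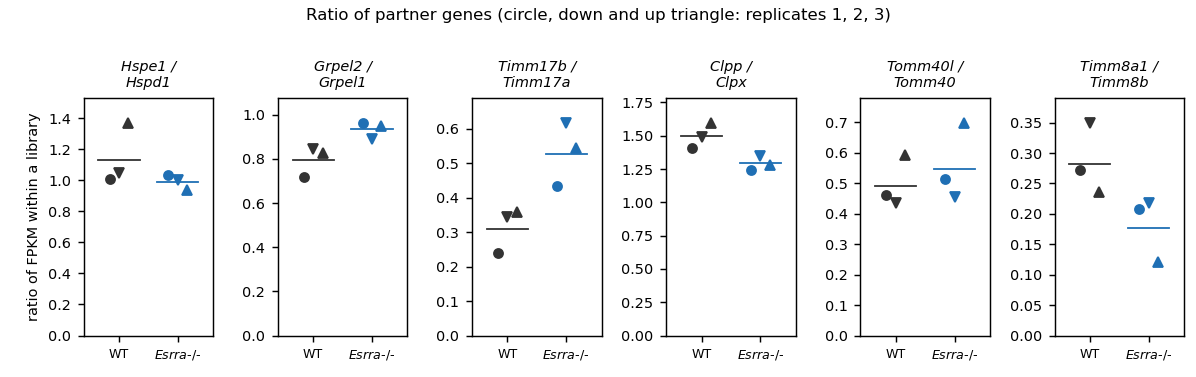
Ratio of FPKM within a library (y axis, from 0) for 6 pairs of partner or paralog genes in the 3 WT and 3 *Esrra*-/- libraries; symbols are replicates and lines are the back-transformed means of the log2 ratios. The ratios of *Grpel2* to *Grpel1*, *Timm17b* to *Timm17a*, *Clpp* to *Clpx* and *Timm8a1* to *Timm8b* do not overlap between genotypes, and the other pairs overlap.

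*Oxa1l*, which inserts proteins into the inner membrane from the matrix side, had 27.5, 27.8 and 32.6 FPKM in WT and 22.4, 24.0 and 24.1 FPKM in *Esrra*-/-, a log2 fold change of −0.31 (limma adjusted p = 0.429). It kept a raw p below 0.05 in 8 of 15 other settings and lost it with any 1 of the 6 libraries left out. None of the 3 presequence peptidase genes passed the test. *Mipep*, the intermediate peptidase, had 7.20, 7.06 and 5.86 FPKM in WT and 4.97, 7.13 and 5.88 FPKM in *Esrra*-/-. The log2 fold changes were −0.17 for *Mipep*, −0.12 for *Pmpcb*, the catalytic subunit of the main processing peptidase, and 0.10 for *Pmpca*, its partner subunit. With 1 library left out they ran from −0.30 to −0.04, from −0.27 to −0.02 and from 0.04 to 0.16.

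The chaperonin of the matrix is built from HSPD1 (Hsp60) and its lid HSPE1 (Hsp10). *Hspe1* had 95.2, 108 and 105 FPKM in WT and 68.1, 79.1 and 62.2 FPKM in *Esrra*-/-, and it was lower without overlap (log2 fold change −0.56 ± 0.15, SE, limma adjusted p = 0.297). *Hspd1* had 94.6, 104 and 76.7 FPKM in WT and 65.8, 79.2 and 66.3 FPKM in *Esrra*-/-. The genotypes of *Hspd1* overlapped, with *Esrra*-/- replicate 2 over WT replicate 3, and its log2 fold change of −0.37 had a 95% interval from −0.76 to 0.01. The ratio of *Hspe1* to *Hspd1* ran from 1.01 to 1.37 in WT and from 0.938 to 1.03 in *Esrra*-/- (log2 difference −0.19, two-sided exact permutation test, p = 0.2, adjusted p = 0.24). Without WT replicate 3 the log2 difference was −0.05. The annotated transcripts of the pair share 3.07% of the stretches of *Hspd1* and 11.0% of those of *Hspe1*.

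The other chaperones and the proteases of the matrix did not pass the test. *Dnaja3*, a J-protein that works with HSPA9, averaged 19.0 ± 0.836 FPKM over WT against 16.1 ± 1.61 FPKM over *Esrra*-/- (SD, n = 3 each), with no overlap and a log2 fold change of −0.24 (limma adjusted p = 0.531). *Trap1*, the Hsp90 of mitochondria, averaged 33.2 ± 2.78 FPKM over WT against 36.7 ± 3.88 FPKM over *Esrra*-/-, a log2 fold change of 0.14 with a 95% interval from −0.18 to 0.46. *Clpp*, the protease chamber, had 18.2, 18.2 and 21.0 FPKM in WT and 17.9, 19.6 and 15.9 FPKM in *Esrra*-/-. *Clpx*, the unfoldase that feeds it, had 12.9, 12.2 and 13.2 FPKM in WT and 14.4, 14.5 and 12.4 FPKM in *Esrra*-/-. The log2 fold changes were −0.11 for *Clpp*, 0.10 for *Clpx* and −0.02 for *Lonp1*, the protease that degrades oxidised matrix proteins. With 1 library left out they ran from −0.18 to −0.03, from 0.07 to 0.18 and from −0.09 to 0.04. The intervals of these genes, from −0.41 to 0.20, from −0.17 to 0.38 and from −0.31 to 0.28, exclude a change as large as the fold limit. *Tomm34*, a cytosolic co-chaperone that the symbol rule takes in although it is no part of the translocase, had 9.01, 8.93 and 10.1 FPKM in WT and 8.26, 9.18 and 8.71 FPKM in *Esrra*-/- (log2 fold change −0.10).

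Of the ratios of partner genes, that of *Grpel2* to *Grpel1* had a log2 difference of 0.23, *Clpp* to *Clpx* one of −0.21 and *Timm8a1* to *Timm8b* one of −0.67, all without overlap and with the smallest possible p of 0.1 in the two-sided exact permutation test (adjusted p = 0.15). That of *Timm8a1* to *Timm8b* was −0.40 without *Esrra*-/- replicate 3. The pore paralogs *Tomm40l* and *Tomm40* had a log2 difference of 0.15 (exact permutation p = 0.6, adjusted p = 0.6), which was 0.06 without WT replicate 2, 0.28 without WT replicate 3 or *Esrra*-/- replicate 2 and −0.02 without *Esrra*-/- replicate 3. The exact permutation test cannot go below 0.1 for any of the 6 ratios.

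**Figure D5:**
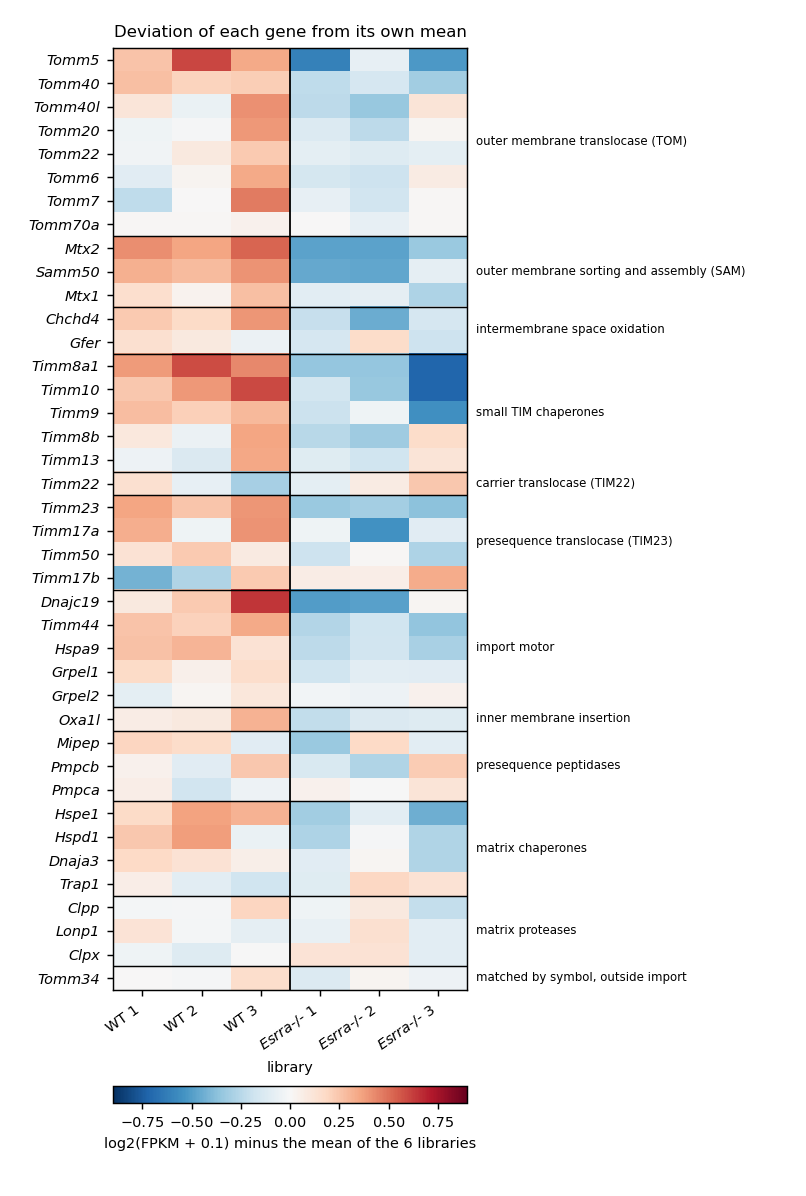
Deviation of log2(FPKM + 0.1) from the mean of the 6 libraries (colour) for each tested member (rows, grouped by role) in each library (columns, 3 WT then 3 *Esrra*-/-). The SAM genes, *Timm8a1*, *Timm10*, *Timm23* and *Timm44* are above their mean in all WT libraries and below it in all *Esrra*-/- libraries, and WT replicate 3 is the highest library for much of the TOM group.

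Each library was also summarised by the log2 deviation of the 40 members from their 6-library means. The median over members was 0.14, 0.07 and 0.26 for WT replicates 1 to 3 and −0.16, −0.11 and −0.10 for *Esrra*-/- replicates 1 to 3. The genotypes did not overlap in this measure, and WT replicate 3 was the highest library. WT replicate 3 exceeded both other WT libraries for 25 of the 40 members, and *Esrra*-/- replicate 3 exceeded both other *Esrra*-/- libraries for 17. Of the 25, 16 were among the 20 members with the shorter transcripts. The median excess of WT replicate 3 over the mean of WT replicates 1 and 2 was 0.24 for the 20 members with a median annotated transcript length of at most 1409.5 bases and 0.02 for the other 20. Over all genes tested the same excess was 0.19 for genes no longer than that limit and −0.03 for longer ones. Over all genes tested, shorter genes were also lower in *Esrra*-/- more often, with 378 of 3086 (12.2%) at a raw p below 0.05 against 310 of 7495 longer genes (4.14%), and 209 (6.77%) called against 139 (1.85%). Their median log2 fold changes were −0.06 and 0.06. Among members 8 of 20 shorter genes (40.0%) and 8 of 20 longer genes (40.0%) were lower at that p, 4 (20.0%) and 3 (15.0%) were called, and the medians were −0.29 and −0.25. The part of transcript length and library composition in the fold changes was not tested. Without WT replicate 3 the call count was 6, with *Dnajc19* lost, and the median −0.23, and 3.76% of all genes were called lower. The 4 libraries with Y-linked transcripts alone were an alternative chosen after seeing the data. Over them 6 of the 7 (not *Timm10*) were called lower, against 3.28% of all genes, and the median was −0.25.

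Markers of crypt cells and of Paneth cells had negative values too. All 12 markers of crypt and cycling cells had a negative log2 fold change, 4 of them at a raw p below 0.05, with a median of −0.62 and a summed level of 249 to 395 FPKM in WT and 130 to 295 FPKM in *Esrra*-/-. All 6 Paneth cell markers were negative too, 4 at a raw p below 0.05, with a median of −1.43 and sums of 9802 to 19870 and 1917 to 8409 FPKM. None of these markers was at 0. Of the 12 villus enterocyte markers 11 were positive and 0 passed the test, with a median of 0.22. The part of these cells in the values of the members was not tested.

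Further genes of import and quality control were taken from a list. Of these 23 genes for further subunits, peptidases, quality-control proteases and their regulators 5 were lower at a raw p below 0.05 (21.7%) and 0 were higher, with a median log2 fold change of −0.16. The genes called lower were *Dnajc15*, a relative of *Dnajc19* at the same motor, with 41.8, 43.7 and 46.5 FPKM in WT and 22.9, 30.5 and 25.4 FPKM in *Esrra*-/-, and *Phb*, a prohibitin of the inner membrane scaffold. The log2 fold change of *Dnajc15* was −0.75 ± 0.14 (SE, limma adjusted p = 0.195). *Phb* had 75.8, 83.8 and 76.3 FPKM in WT and 45.1, 52.9 and 49.8 FPKM in *Esrra*-/- (log2 fold change −0.67, limma adjusted p = 0.195). The other 3 lower genes were *Hscb*, a co-chaperone for iron-sulfur proteins, *Afg3l2*, a protease of the inner membrane, and *Agk*, a TIM22 subunit, with −0.52, −0.39 and −0.51. Among 24 cytosolic chaperone genes, which fold proteins outside mitochondria, 1 was lower at a raw p below 0.05 (4.17%, *Pfdn4*, a prefoldin subunit, log2 fold change −0.41), 0 were called and the median was −0.12. Of these 24, 21 had a negative log2 fold change (87.5%, the share found among the members), 4 did not overlap on the lower side (16.7%) and 0 did not overlap on the higher side. Of the 23 import and quality-control genes 17 were negative (73.9%), 6 did not overlap on the lower side (26.1%) and 1 did not on the higher side (*Yme1l1*, a protease of the inner membrane, log2 fold change 0.26). At a raw p below 0.05 the lower share was 40.0% of members and 6.49% of all genes, and without overlap on the lower side it was 50.0% and 9.14%, with 8.45% of all genes on the higher side. The differences between lists were not tested.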

How the data were processed

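RNA was extracted from EDTA-released duodenal epithelium of 3 WT and 3 *Esrra*-/- mice. Per the labels and methods, the authors checked reads with FastQC (0.11.3), quantified them with kallisto (given as 2.1.0) against mm9 and calculated FPKM with DESeq2 (given as 2.2.1), and the FPKM values were deposited as 1 column per library. The annotation is not given in the sources used here. The table of the authors' own comparison (mean count, fold change and p-values) was not used.

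Here log2(FPKM + 0.1) was tested for genes with mean FPKM above 1 in limma (3.58.1, R 4.3.3; lmFit, eBayes with a mean-variance trend, no covariate), with Benjamini-Hochberg adjustment over all 10596 genes. Fold changes on this scale understate those of low genes. A count test was not run, as the values are no counts. Ratios were tested with scipy (1.17.1). The script was tested on simulated data. Gene coordinates and transcripts came from GENCODE M1 (mm9). The authors describe the libraries of each genotype as biological replicates. The labels do not say that they come from separate litters or preparations. The p-values therefore set the difference between genotypes against the spread between these libraries only. The members and lists were chosen with earlier results of these data known. Values in every library were given, by rule, for members called, those with the smallest p of their role and those in the 6 pairs, and for other listed genes that were called. *Hscb*, *Afg3l2*, *Agk* and *Pfdn4* were named after their values were seen, as were *Mtx3*, *Pam16* and *Yme1l1*. Of goblet, enteroendocrine and immune markers 1 of 8, 0 of 8 and 0 of 9 were lower and 0, 0 and 1 higher at a raw p below 0.05. The single tested acinar and mesenchymal markers did not pass. Alternatives were other pseudocounts, filters, normalizations, thresholds, a replicate block, covariates and leaving out libraries.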

Additional observations from a re-analysis of the deposited data

How the results depend on the processing

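Under 15 other settings the count of members called lower ran from 6 to 9, and the median log2 fold change of the members stayed negative. The share of all genes called lower ran from 1.76% with no filter on low values to 5.07% without *Esrra*-/- replicate 2. *Mtx2*, *Samm50*, *Timm23*, *Timm8a1* and *Tomm5* were called in all 15, *Timm10* in 14 and *Dnajc19* in 12. When the adjusted p itself had to be under 0.05 the count was 0, and with a fold limit of 1 on the log2 scale it was 0. *Mtx2* had an adjusted p of 0.0402 from limma under quantile normalization, and with the presence of Y-linked transcripts as a covariate, added after seeing the data, 2 members (*Mtx2* and *Timm8a1*) had one under 0.05.

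With the replicate number as a block, 7 members were called, 22 were lower and 1 (*Timm17b*) was higher at a raw p below 0.05, and 2 cytosolic chaperone genes were lower. The shares over all genes rose too in this fit. Of all genes tested 11.3% were lower at that p and 4.16% were called lower, against 6.49% and 3.28% in the main fit. The 7 genes called with the block were the same 7 as in the main fit. The labels do not say whether the numbers pair the libraries. The correlation of deviations was 0.0116, 0.263 and 0.376 for replicates 1, 2 and 3. It cannot decide this, since deviations from a mean of 3 libraries constrain each other. Not every library correlated best with its own number (*Esrra*-/- replicate 1 did so with WT replicate 2, at 0.0276). With Y-linked transcripts as a covariate, added after seeing the data, 22 members were lower and 1 was higher at a raw p below 0.05. In that fit 2 cytosolic chaperones and 10.2% of all genes tested were lower at this p. With only the libraries that have Y-linked transcripts 1 member was higher. The count of lower members was 16 in the main fit. Over the other settings it ran from 13, without WT replicate 1 or without *Esrra*-/- replicate 1, to 22 with the block or the Y-linked covariate. With no filter on low values 4 cytosolic chaperones were lower. The causes of these shifts were not tested.

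Over the fits that left out 1 library, 6 to 9 members were called lower, against 2.38% to 5.07% of all genes. In these fits 0 to 1 members were higher at a raw p below 0.05 and 0 to 1 did not overlap on the higher side. Of the cytosolic chaperones 1 to 2 were lower, and the log2 difference of *Tomm40l* to *Tomm40* ran from −0.0249 to 0.284. Log2 fold changes near 0 changed sign. Those of *Lonp1* ran from −0.0924 to 0.0417, of *Grpel2* from −0.0682 to 0.0270, of *Timm13* from −0.206 to 0.0311 and of *Tomm7* from −0.313 to 0.0330 with 1 library left out. With only the libraries that have Y-linked transcripts *Clpp* had 0.0412, *Grpel2* 0.0012 and *Timm22* −0.0407. The values do not give the read count of each library, so no counting interval was made.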
